A study of Oryza sativa Indica Group with 64 samples.

Results

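Leaves of field-grown IR64 rice were compared at 10 h after dawn, between 4 libraries from plants with warm nights and 4 from control plants. The warm night temperature (WNT) plants were warmed by infrared heaters during the night, and the control plants were not. These 8 libraries are all those labelled with this hour, of 64 libraries in the time course, which holds 16 groups of 4 (both treatments at dawn, 3 h, 7 h, 10 h, dusk, 14 h, 17 h and 23 h). Both groups were the indica variety IR64, field-grown in the dry season at IRRI (Philippines), and no gene was altered in either. The labels call the tissue leaf, and the methods of the study call it flag leaf. The layout of plots and heaters in the field is not given in the sources used here, so a difference between plots and the effect of the heaters cannot be told apart. Whether a library came from 1 plant or a pool is not given either, so p-values measure the spread between these libraries.

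Night warming is known in rice for raising leaf respiration in the dark and for lowering grain filling and grain quality. Leaf transcripts in cereals also cycle with the day, under light and the circadian clock, so that many carbon and photosynthesis genes have an hour of highest abundance. Leaves taken 10 h after dawn had been in daylight, and the heaters run at night. The comparison therefore addresses whether leaves in the afternoon differed between plants that had warm nights and plants that had not. In bulk leaf RNA, fewer cells of a type and less RNA per cell cannot be told apart.

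The count files name their 57174 genes by identifiers with the prefix MH, and 0 of these were found among the 39387 genes of the RefSeq gene table. No gene name, function, pathway or tissue marker could be attached, so the leaf label was not checked against markers. The genes are therefore described by their levels, by the size and direction of their difference, and by their hour in the day. Per library, 8700244 to 33500539 counts fell on genes, against a median of 8627815 over all 64 libraries. Of 6 library measures (counts on genes, reads not aligned, reads aligned to several places, reads on no gene, genes with a count, share of the 10 most counted genes), none differed after Benjamini-Hochberg adjustment. The share of counts on the 10 most counted genes came closest, at 4.39% ± 0.342 (SD, n = 4) in WNT and 5.37% ± 0.672 (SD, n = 4) in control. Its exact two-sided permutation p was 0.0286, the smallest that 4 against 4 allows, and 0.171 after adjustment. Its part in the results was not tested.

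Control replicate 4 stood nearer to the WNT libraries than to its own group. Over the log2 CPM (counts scaled to a common library size) of the 18179 genes tested, its mean correlation was 0.956 with the other controls and 0.966 with the WNT libraries. Control replicate 3 was about equally close to both groups (0.964 and 0.965). Every WNT library was closer to its own group, with means from 0.969 to 0.974 against 0.957 to 0.963. These points share libraries and base levels of genes, so the values are a description. By this measure the library labelled Control replicate 4 went against its label, and whether the label is right could not be checked. The main results are therefore also given without it. It was picked for lying near the WNT libraries, so leaving it out widens the distance between the groups in part by construction. Counts without it are thus a description.

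WNT leaves differed from control leaves in 313 genes at this hour. More of them were higher (241) than lower (72). The differences were mostly small, with a median of 0.73 on the log2 scale among the genes called higher and -0.73 among those called lower. These calls came from edgeR's quasi-likelihood test on the 8 libraries alone with Benjamini-Hochberg adjustment, at an adjusted p under 0.05. They made up 1.72% of 18179 genes tested, with 1.33% higher and 0.396% lower. At an unadjusted p under 0.05, there were 3557 genes, of which 1995 were higher and 1562 lower. All 313 lay close to the threshold, with adjusted p between 0.0344 and 0.0491.

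This hour was chosen for its small spread between replicates, so the spread is a description. The common biological coefficient of variation, edgeR's measure of the relative spread of a gene between replicates, was 0.221 at 10 h and between 0.276 and 0.360 at the other 7 time points. Fitted alone in the same way, 3 h gave 5 genes and each of the other 6 time points gave 0 (860 to 2462 genes at an unadjusted p under 0.05, and no other tool was run there). In a fit of all 64 libraries, in which the hours share an estimate of the spread (coefficient 0.332), edgeR's quasi-likelihood test called 0 genes at 10 h. That fit had 1810 genes at an unadjusted p under 0.05 and a lowest adjusted p of 0.0574. The other tools run on the 8 libraries alone called 1549 genes (DESeq2) and 1831 (limma-voom with sample quality weights).

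In 2089 genes (11.5% of those tested), all 4 WNT libraries lay on the same side of all 4 control libraries. WNT was higher in 1221 of them (6.72%) and lower in 868 (4.77%). Without Control replicate 4 the count was 4894 of 18396 genes tested, with 2546 higher and 2348 lower, a nearly even split. Without WNT replicate 2 it was 3326 of 18475. Fewer libraries overlap less by construction, and the lowest count with any library left out was 2429. Each of the 313 called genes was among the 2089 genes without overlap in all 8 libraries, and the other 1776 were not called. At the other 7 time points, fitted alone, the share without overlap was between 3.22% and 8.18%. Most gaps were narrow. Between the nearest libraries of the groups, the median gap was 0.12 on the log2 scale where WNT was higher, 0.08 where WNT was lower, and 0.29 among the called genes. Among the genes called without Control replicate 4, it was 0.30 for those higher and 0.26 for those lower.

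Control replicate 4 was the control nearest to the WNT libraries in 205 of the 313 called genes (65.5%). WNT replicate 2 was the WNT library nearest to the controls in 201 of them (64.2%). The other libraries held that place in 14 to 65 genes among controls and in 9 to 54 among WNT.

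Among the 241 genes called higher, the log2 fold change ran from 0.44 to 3.75, and the middle part (quartiles) from 0.61 to 0.86. It was at least 2-fold in 30 of them and at least 4-fold in 6. Among the 72 called lower, it ran from -2.75 to -0.44, with 16 at least 2-fold and 2 at least 4-fold. Over all genes tested the median was -0.0015, and 90% of genes (5th to 95th percentile) lay between -0.54 and 0.66. A large fold change was no guarantee of a call, since 348 tested genes differed by at least 1 on the log2 scale, of which 135 did not overlap and 46 were called. Both were more frequent there than among all genes tested (11.5% without overlap, 1.72% called).

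**Figure D1:**
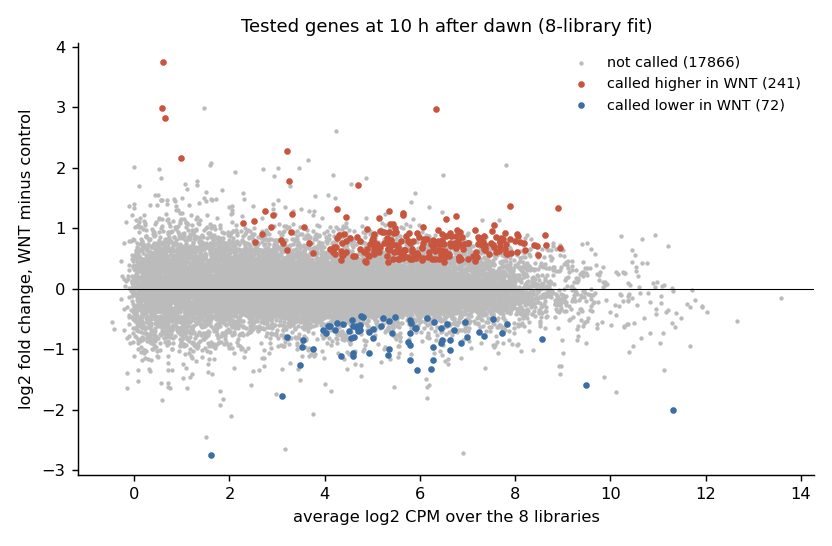
Each point is a gene tested at 10 h, by its average log2 CPM over the 8 libraries (x axis) and its log2 fold change, WNT minus control (y axis). The 241 genes called higher (red) and 72 called lower (blue) lie mostly within 0.4 to 1.5 of 0 on the log2 scale, and few of them lie among the genes with low counts.

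The calls were more frequent among genes with more counts. Genes were ordered by mean CPM, which is not scaled by gene length, and cut into 5 equal parts. From the lowest to the highest part, 0.138%, 0.55%, 1.38%, 2.78% and 3.77% of genes were called. The called genes had a median mean of 54.9 CPM, against 19.1 CPM over all genes tested. Of the 100 most counted genes, edgeR's quasi-likelihood test called 1, which was lower in WNT. Groups without overlap were found in 28 of these 100, against 11.5% of all genes tested and 18.0% of the highest abundance part. Together the called genes held between 2.57% and 3.48% of the counts of a library.

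Identifiers are given for 2 genes in each direction, those with the largest fold changes among called genes without overlap and with a mean of at least 5 CPM. Of the called genes, 236 higher and 71 lower met these conditions.

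MH01t0015600 was the most strongly raised of them. Its level in the control libraries was 39.2, 9.34, 16.5 and 9.30 CPM for replicates 1 to 4. In the WNT libraries it was 166.7, 92.7, 195.8 and 113.1 CPM. All 4 WNT libraries were above the highest control, which was replicate 1. The means were 142.1 ± 47.5 CPM in WNT and 18.6 ± 14.1 CPM in control (SD, n = 4). The log2 fold change was 2.97 (SE 0.51, edgeR's quasi-likelihood test, adjusted p = 0.0432), or 7.82-fold.

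MH12t0326100 was a gene of low level in control leaves, at 3.25, 2.37, 4.42 and 2.49 CPM. The WNT libraries held 20.9, 12.05, 16.3 and 11.2 CPM. The lowest WNT library thus exceeded the highest control by more than the whole range of the controls. The means were 15.1 ± 4.47 CPM and 3.13 ± 0.942 CPM (SD, n = 4), with a log2 fold change of 2.27 (SE 0.27, edgeR's quasi-likelihood test, adjusted p = 0.0344).

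MH01t0461100 was lowered most among the eligible genes, and it was the called gene among the 100 most counted. Control libraries held 6680, 4363, 3006 and 2330 CPM. The WNT libraries held 854.5, 1456, 907.1 and 859.1 CPM. The controls were widely spread and still did not overlap with WNT, where replicate 2 stood above the other 3 libraries. The means were 1019 ± 292.2 CPM in WNT and 4095 ± 1920 CPM in control (SD, n = 4), with a log2 fold change of -2.01 (SE 0.33, edgeR's quasi-likelihood test, adjusted p = 0.0402), a 4.02-fold lower level.

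MH07t0496200 was lowered with little spread in either group. Controls were at 17.3, 12.7, 10.9 and 12.2 CPM. The WNT libraries were at 3.70, 2.86, 4.28 and 4.47 CPM. The highest WNT library lay well below the lowest control. The means were 3.83 ± 0.724 CPM and 13.3 ± 2.79 CPM (SD, n = 4), with a log2 fold change of -1.77 (SE 0.20, edgeR's quasi-likelihood test, adjusted p = 0.0344).

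**Figure D2:**
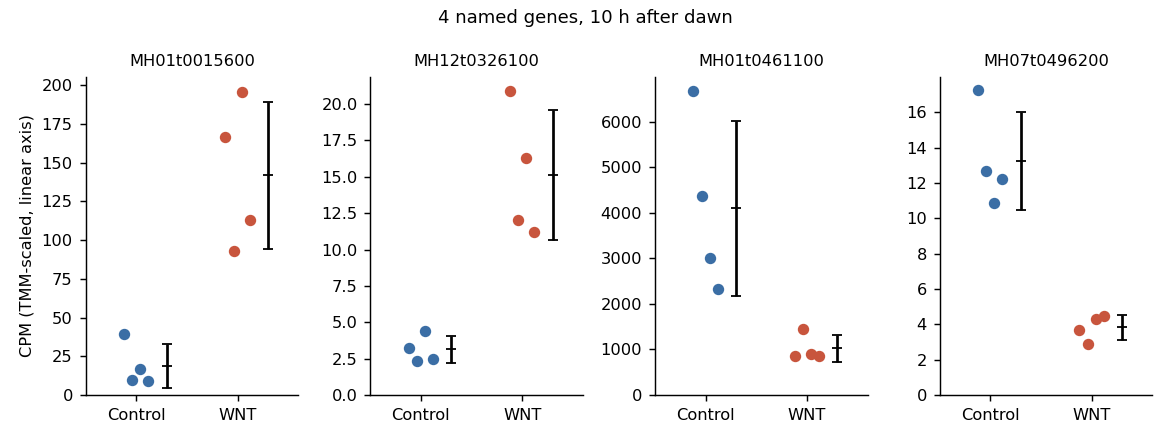
CPM (linear axis from 0, each panel with its own scale) of the 4 named genes in each of the 8 libraries at 10 h, with points in replicate order from left to right. The mean and SD (n = 4) stand beside each group; in every panel the WNT libraries (red) and the control libraries (blue) do not overlap.

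The number of called genes rested on single libraries to a large extent. Without Control replicate 4, 2046 genes were called (1226 higher, 820 lower), and these held all 313. Without WNT replicate 2, 324 genes were called, of which 232 were among the 313. Without Control replicate 1, 8 genes were called. With Control replicate 2 or 3, or WNT replicate 1, 3 or 4, left out, edgeR's quasi-likelihood test called 0, while 2559 to 3245 genes had an unadjusted p under 0.05. No other tool was run on 7 libraries. Of the named genes, all 4 lost their call without Control replicate 2 or 3, or WNT replicate 1, 3 or 4, and MH12t0326100 and MH01t0461100 also without Control replicate 1. All 4 lost it in the fit of all 64 libraries (edgeR's quasi-likelihood test, adjusted p from 0.158 to 0.252), and MH01t0015600 also with no filter on low counts (adjusted p = 0.0742 in the same test). Their fold changes kept their direction with each library left out, with log2 values of 2.73 to 3.61 for MH01t0015600, 2.07 to 2.47 for MH12t0326100, -2.24 to -1.67 for MH01t0461100 and -1.87 to -1.62 for MH07t0496200.

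**Figure D3:**
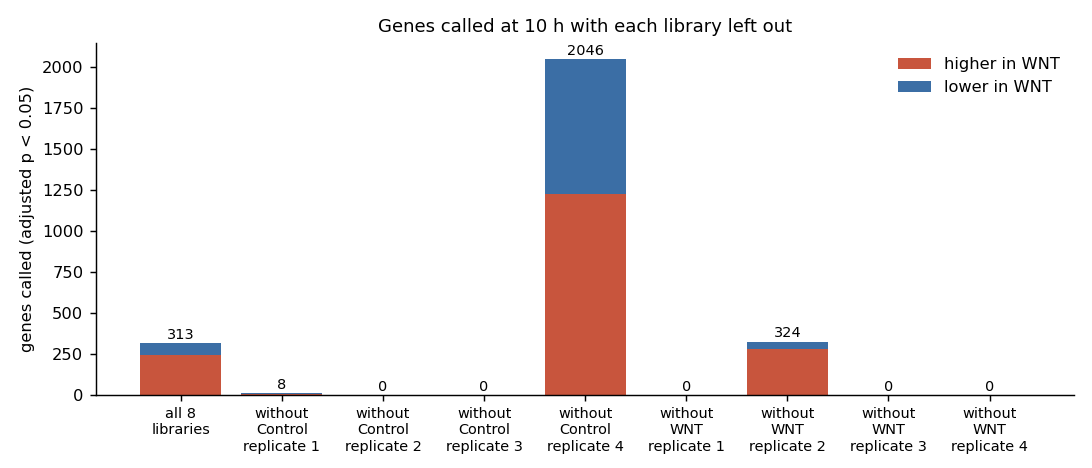
Bars give the genes called at 10 h (edgeR's quasi-likelihood test, adjusted p under 0.05), higher in WNT (red) and lower (blue), with all 8 libraries and with each library left out. The count was 313 with all 8, 2046 without Control replicate 4, 324 without WNT replicate 2, 8 without Control replicate 1 and 0 in the other 5 fits.

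Libraries of the other hours took no part in the calls, and they gave the same measure of WNT against control. Whether they came from the same plots as the 10 h libraries is not given, so they are not counted as independent. The genes called higher at 10 h were mostly higher in WNT throughout the day. At 7 h, all but 2 of the 241 (99.2%) were higher in WNT, against 50.0% of all genes tested, with a median difference of 0.36 on the log2 scale. At dusk 92.9% were higher (median 0.24), and at dawn 95.4% (median 0.47). The share was 90.0% at 14 h, 90.9% at 17 h and 86.3% at 23 h, and was lowest at 3 h (78.01%, median 0.13). In 136 of the 241 (56.4%), WNT was higher at all 7 other hours, against 6.27% of all genes tested. Among the 1226 genes called higher without Control replicate 4, that share was 34.0%, against 6.11%.

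The genes called lower kept their direction best at the adjoining hours. At dusk 70 of the 72 (97.2%) were lower in WNT (median -0.40), and at 7 h 65 of them (90.3%, median -0.35), against 49.8% and 50.0% of all genes tested. The share fell off in the night, to 79.2% at 14 h, 63.9% at 17 h and 66.7% at 23 h. It was 83.3% at dawn and 69.4% at 3 h. In 14 of the 72 (19.4%) WNT was lower at all 7 other hours, against 5.02% of all genes tested. Without Control replicate 4 that share was 21.95% of the 820 genes called lower, against 5.00%.

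Separation without overlap recurred at some hours and not at others. All 4 WNT libraries were above all 4 controls at 7 h in 85 of the 241 genes (35.3%), against 2.66% of all genes tested and 4.19% of the 7272 in the upper 2 of the 5 abundance parts. At the other hours that share was 11.6% at dawn, 8.30% at dusk, 7.05% at 14 h and 5.81% at 23 h, against 1.45% to 3.09% of all genes tested. It was below that of all genes at 3 h (1.66% against 3.25%) and 17 h (0.830% against 2.11%). For the 72 genes called lower, all 4 WNT libraries were below all controls in 25% at dusk, 13.9% at 3 h and 7 h, 12.5% at 23 h, 9.72% at dawn, 6.94% at 14 h and 5.56% at 17 h. Over all genes tested these shares were between 1.51% and 5.51%. Without Control replicate 4, the share was 14.8% at 7 h for the genes called higher, against 2.78%, and 12.2% at dusk for those called lower, against 1.84%. Genes are not independent of each other, and whether the same plots were sampled at successive hours is not given, so these shares carry no test.

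**Figure D4:**
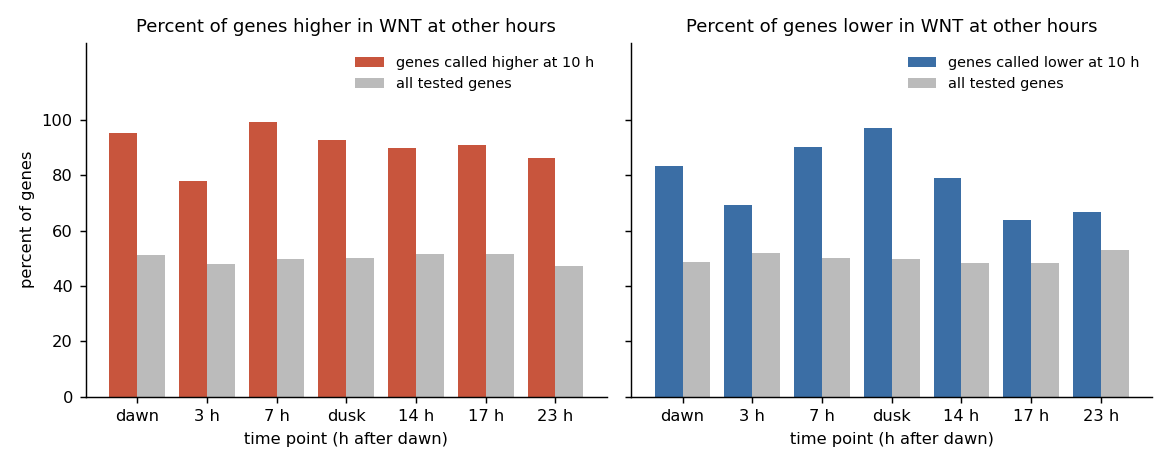
Bars give the percent of genes higher in WNT (left) or lower in WNT (right) at each of the 7 other time points, for genes called higher (241, red) or lower (72, blue) at 10 h and for all 18179 genes tested (grey). The red bars stand between 78.01% at 3 h and 99.2% at 7 h, the blue bars between 63.9% at 17 h and 97.2% at dusk, and the grey bars between 47.1% and 52.9%.

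The called genes also differed from other genes in their hour of highest level in control leaves, taken over the 7 hours other than 10 h. In 169 of the 241 genes called higher (70.1%) that hour was 7 h, against 19.9% of all genes tested and 22.0% of those in the upper 2 abundance parts. From 7 h to dusk, 87.6% of the 241 fell in control leaves (median -0.48 on the log2 scale), against 52.0% of all genes tested (median -0.03). The 72 genes called lower had no such common hour, with 20.8% highest at dawn, 23.6% at 3 h, 18.1% at 7 h and 18.1% at dusk. Without Control replicate 4, the share highest at 7 h was 43.1% of 1226 genes called higher, against 17.9% of genes tested, and 59.5% fell from 7 h to dusk, against 49.5%. Without Control replicate 1 it was 0 of 7 genes.

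Their median course over the day showed the afternoon difference. Relative to each gene's mean over the 14 groups other than 10 h, the median of the 241 genes in control leaves was 0.61 at 7 h, 0.16 at 10 h and 0.07 at dusk on the log2 scale. In WNT leaves it was 0.94 at 7 h, 0.93 at 10 h and 0.32 at dusk. The control median was thus lower at 10 h than at 7 h, whereas the WNT median was nearly the same at both hours. The 10 h values were used in choosing the genes and are a description. Without Control replicate 4, the 1226 genes called higher had control medians of 0.29, 0.09 and 0.16 and WNT medians of 0.63, 0.83 and 0.40 at 7 h, 10 h and dusk, so the WNT median was then higher at 10 h than at 7 h. For the 72 genes called lower, the control medians were 0.41 at 7 h, 0.18 at 10 h and 0.18 at dusk, and the WNT medians 0.01, -0.49 and -0.29. For the 820 called lower without Control replicate 4, they were 0.13, 0.30 and 0.10 in control and -0.10, -0.27 and -0.13 in WNT.

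**Figure D5:**
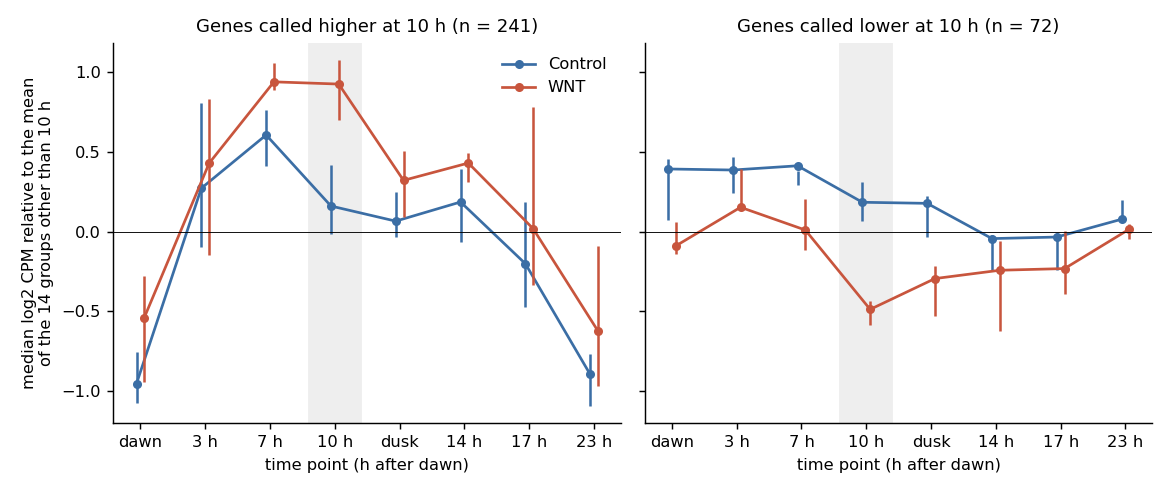
Median log2 CPM of the genes called higher (left, 241) and lower (right, 72) at 10 h, relative to each gene's mean over the 14 groups other than 10 h, in control (blue) and WNT (red) leaves at 8 time points. Vertical lines run from the lowest to the highest median of the 4 libraries, and the shaded hour is the one used to choose the genes; at 10 h the medians are 0.16 and 0.93 on the left and 0.18 and -0.49 on the right.

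Over all genes, the 4 WNT libraries gave no common direction along the control change from 7 h to dusk. Across 18179 genes, the correlation of that change with a WNT library's difference from the control mean at 10 h was -0.03, 0.08, -0.08 and 0.05 for replicates 1 to 4. These values share the 10 h control mean, are a description, and decide nothing on the called genes alone. The control libraries of the same numbers had the same signs (-0.02, 0.07, -0.10 and 0.04, as deviations from the mean of the 8 libraries). The part of the replicate number in the spread of the WNT values was not tested.

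Whether the difference at 10 h was larger or smaller than at other hours was tested directly. In the 64-library fit of 20525 genes, the WNT effect at 10 h minus the mean effect of the other 7 hours was called in 0 genes by edgeR's quasi-likelihood test. At an unadjusted p under 0.05 there were 580, and no other tool was run. All 313 called genes were in this test, and 36.7% of them had an unadjusted p under 0.05, against 2.83% of all genes tested. They were chosen by the 10 h libraries that this contrast uses, so that share is a description. No difference between this hour and the others was thus called for any gene. The same fit also called 0 genes for the plain difference at 10 h, so this does not show that the effect was equal across the hours.

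The named genes had different courses over the day (CPM scaled over all 64 libraries, so slightly different from those above). MH01t0015600 had a higher mean in WNT at all 8 hours. At 7 h it was at 205.2 ± 114.6 CPM in WNT and 30.5 ± 8.70 CPM in control, with all 4 WNT libraries above all controls, as at dusk (145.4 ± 140.3 and 10.8 ± 5.95 CPM; SD, n = 4). At 3 h the groups overlapped (83.0 ± 38.9 and 65.0 ± 36.8 CPM), as they did at dawn, 14 h, 17 h and 23 h. Its WNT libraries were widely spread in the night, from 3.04 to 224.7 CPM at 17 h and from 9.98 to 641.5 CPM at 23 h. Its effect at 10 h exceeded the mean of the other hours by 0.19 on the log2 scale (SE 1.00), less than its error.

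MH12t0326100 had its highest control levels early, at 44.1 ± 27.9 CPM at dawn and 46.2 ± 45.7 CPM at 3 h (SD, n = 4). There its WNT means were lower, at 26.6 ± 11.5 and 13.8 ± 11.7 CPM, and the groups overlapped at both hours. From 7 h to 23 h the WNT mean was the higher at each hour, and the groups were without overlap at 10 h only. The effect at 10 h minus the mean of the others was 1.61 (SE 0.82, edgeR's quasi-likelihood test, adjusted p = 1.00).

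MH01t0461100 was highest in control leaves at 3 h (7785 ± 2397 CPM) and 7 h (6971 ± 3660 CPM), and lowest at 17 h (194.9 ± 77.1 CPM; SD, n = 4). The WNT libraries were all below all controls at 3 h (1988 ± 150.6 CPM), 10 h and 14 h. At 17 h and 23 h the WNT means were the higher, and the groups overlapped. The effect at 10 h minus the mean of the others was -0.85 (SE 0.67, adjusted p = 1.00 in edgeR's quasi-likelihood test).

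MH07t0496200 was a daytime gene in both groups, near 0 at dawn (0.354 ± 0.323 CPM in WNT, 0.278 ± 0.204 CPM in control) and at 12.5 ± 4.78 and 12.4 ± 6.01 CPM at 3 h (SD, n = 4). At 3 h the means were almost equal. At 7 h all 4 WNT libraries were below all controls, at 11.5 ± 2.96 against 25.5 ± 10.0 CPM. At 17 h and 23 h the WNT means were higher at very low levels (1.42 ± 1.32 against 0.423 ± 0.439, and 1.30 ± 1.21 against 0.148 ± 0.176 CPM). The effect at 10 h minus the mean of the others was -2.13 (SE 0.59), with an unadjusted p of 0.000672 in edgeR's quasi-likelihood test and an adjusted p of 1.00.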

How the data were processed

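RNA was extracted from leaf tissue, poly(A) RNA was selected and libraries were made with a directional kit. The authors deposited raw counts of reads per gene, without normalization. The submitters' processing notes name HISAT2 and HTSeq 0.6.0. The genome build, the annotation and the strand setting of the counting are not given in the sources used here, so overlapping, antisense and near-identical genes are uncertain. The closing lines of reads on no gene (8.62% to 10.0% of reads at 10 h), not aligned (10.7% to 15.1%) or aligned to several places (4.35% to 5.72%) were left out of library sizes and tests.

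Libraries were grouped by the labels. The 8 libraries were fitted in R 4.3.3 with edgeR 4.0.16 (filterByExpr minimum count 10, minimum total 15, TMM scaling, glmQLFit with robust estimation, glmQLFTest), with Benjamini-Hochberg adjustment over all genes tested. The filter kept 31.8% of listed genes, with 99.8% of counts. Log2 CPM had a prior count of 2. A library's floor of 3 counts was 0.0896 to 0.345 CPM, which covers counting error only, since PCR reads without molecular identifiers are not independent molecules. Alternatives were other scalings, filters and thresholds, DESeq2 1.42.0, limma 3.58.1 (voom), a replicate block, the 64-library fit and leaving out each library. No replicate pair agreed within sampling noise (lowest chi-square per degree of freedom 13.8). Scripts were tested on simulated data. Figures were drawn with matplotlib 3.10.9.

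The named genes are the 2 largest log2 fold changes in each direction among called genes without overlap and with a mean of at least 5 CPM. Lists of heat shock, clock, photosynthesis, starch and respiration genes were not run, because no identifier was paired with a name. The comparison, its rule and the lists were chosen with earlier results of these data known.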

Additional observations from a re-analysis of the deposited data

Results flagged for a closer look

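Of 22 checks of 1 library against the other 3 of its group, 1 passed the limit of Dixon's test at 95%, near the 1 in 20 that chance gives. It was MH01t0461100 in WNT replicate 2, at 1456 CPM against 854.5 to 907.1 CPM in the other WNT libraries. Its level was still below all 4 controls.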

How the results depend on the processing

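The count of called genes moved with most settings. Against 313 (241 higher, 72 lower), the counts were 203 (152 higher) with RLE scaling, 460 (372 higher) with library size only, 501 (399 higher) with no filter, 204 (152 higher) with CPM above 1 in 4 libraries, 1549 (952 and 597) with DESeq2 and 1831 (1141 and 690) with limma-voom. They were 1123 (772 and 351) at an adjusted p under 0.10 and 0 (0 and 0) at an adjusted p under 0.01, with 3557 genes at an unadjusted p under 0.05. They were 0 (0 and 0) in the fit of all 64 libraries, with 1810 at an unadjusted p under 0.05. The causes were not tested. The share of calls that were higher was 74.9% to 80.9% over the scalings, 61.5% with DESeq2 and 62.3% with limma-voom. Leaving out each library gave 0 to 2046 called genes, 0 to 1226 higher and 0 to 820 lower, with the highest of each without Control replicate 4.

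The count of genes without overlap was 2429 to 4894 with a library left out (1252 to 2546 with WNT higher, 1112 to 2348 lower), and fewer libraries overlap less by construction. It was highest without Control replicate 4 (4894) and next without WNT replicate 2 (3326).

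In the 3 fits with a library left out that still called genes, 93.1% to 100% of genes called higher were higher at 7 h and 90.7% to 100% at dusk. Of genes called lower, 85.1% to 100% were lower at 7 h and 86.96% to 100% at dusk. The values of 100% rest on the 8 genes called without Control replicate 1. The difference between 10 h and the other hours was called in 0 genes under all 11 alternatives (365 to 924 at an unadjusted p under 0.05 with a library left out). For MH01t0015600 that difference of 0.19 changed sign without Control replicate 2, Control replicate 4 or WNT replicate 3, and was then -0.0482, -0.0302 and -0.0246, in a range from -0.0482 to 0.84.

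With the replicate number as a block, 460 genes were called (363 higher, 97 lower). Same-numbered WNT and control libraries had correlations of 0.08, 0.22, 0.22 and -0.03 in their deviations from the group means. Only those of replicates 2 and 3 were over 0.1. The main fit was therefore left unpaired, by a cut-off of choice, and a pairing by number is not excluded. Of the WNT libraries, replicate 3 correlated best with the control of its own number, and replicates 1, 2 and 4 with another. For replicates 1 and 2 the margin was small (0.0779 against 0.0755, and 0.227 against 0.216). The correlation of each library's deviation from the mean of the 8 with the control change from 7 h to dusk was also taken. It had the same sign in both groups at each number. For replicates 1 to 4 it was -0.02, 0.07, -0.10 and 0.04 in control and -0.04, 0.11, -0.12 and 0.07 in WNT. Whether same-numbered libraries share a source was not tested. Analyses of peak hour under other settings were added after seeing the data, with 68.4% at 7 h under RLE scaling, 69.7% under CPM above 1 in 4 libraries and 0 to 76.3% with a library left out.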

Other observations

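Among listed genes, 22 had 0 counts in all 4 control libraries and a count in all 4 WNT libraries at 10 h, and 7 showed the reverse. None of these was among the 18179 genes tested, so edgeR's quasi-likelihood test gave no value for them. The WNT libraries held 9269659 to 33500539 counts and the control libraries 8700244 to 15586969, and the part of depth in these counts was not tested.

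The genes called without Control replicate 4, a choice made after seeing the data, mostly kept their direction at hours that took no part in the calls. They include all 313 genes called with all 8 libraries, so a part of this is built in. Among those called higher, the shares were smaller than for the 241 genes, as at 3 h (57.6% against 78.01%). Of the 1226 called higher, 85.6% were higher in WNT at dawn, 57.6% at 3 h, 93.1% at 7 h and 90.7% at dusk, against 52.5%, 45.9%, 50.5% and 51.1% of the 18396 genes tested. Of the 820 called lower, 27.8% were higher in WNT at dawn, 32.1% at 3 h, 14.9% at 7 h and 8.54% at dusk. At 3 h the median difference of the genes called higher was 0.05 on the log2 scale, the smallest of the 7 hours.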
